A study of Mus musculus with 8 samples.

Results

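The type 2 cytokine axis and eotaxin genes are 10 genes chosen by symbol from the 32849 genes of the deposited count table, namely Il33 and Tslp (epithelial alarmins), Il1rl1, Il4ra, Il13ra1 and Il13ra2 (receptors), Stat6 (transcription factor), Ccl11 and Ccl24 (eotaxins) and Postn (periostin). All 10 were listed in the table, and 9 of them passed the filter on low counts and were tested. Il13ra2 did not pass. The study sequenced poly(A) RNA from frozen esophagus tissue of 4 MGL KO and 4 WT mice. MGL, monoacylglycerol lipase, degrades the endocannabinoid 2-arachidonoylglycerol (2-AG), and its gene Mgll was deleted globally in the MGL KO mice, which were bred in-house with WT littermates. No animal of either group received a treatment or an allergen, and the comparison asks which genes differ between the genotypes at baseline. Young adult mice of both sexes were used in the study, and the labels do not give the sex or age behind each library.

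In eosinophilic esophagitis (EoE), damaged or exposed epithelium is known to release the alarmins IL-33 and TSLP, which act on group 2 innate lymphoid cells, mast cells and T helper 2 cells. These cells secrete IL-5, which supports eosinophils, and IL-4 and IL-13, which signal through the receptor chains IL-4Rα and IL-13Rα1 to the transcription factor STAT6. STAT6 in turn is known to induce eotaxins, which draw eosinophils into tissue through their receptor CCR3, and periostin, a matrix protein that supports eosinophil adhesion.

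The deposited values are read counts per gene, between 13479069 and 17090152 per library. They were divided by library sizes scaled by trimmed mean of M values (TMM) factors and are given below as normalized CPM, that is, counts scaled to a common library total. The targeted gene Mgll, the check of the labels, was at 13.7 ± 1.54 normalized CPM in MGL KO mice, against 81.2 ± 9.97 in WT mice (mean ± SD, n = 4 each), with no overlap between both genotypes. Markers of squamous epithelium and muscle were abundant in every library, with summed basal squamous markers between 3608 and 6369 normalized CPM and summed skeletal muscle markers between 30611 and 77417 normalized CPM, while Ivl of the 8 differentiated squamous markers stayed at or below 0.80. In each genotype, libraries stood apart. MGL KO replicate 4 held 8975 normalized CPM of 6 airway secretory markers, MGL KO replicate 1 held 52.4, and all other libraries held 0.39 to 3.20. MGL KO replicate 2 had the highest skeletal muscle sum and the lowest basal and differentiated squamous sums of the 8 libraries. WT replicate 1 had the highest macrophage marker sum (655 normalized CPM, against 223 to 438 elsewhere), and WT replicate 3 had the lowest basal and differentiated squamous sums of its group. In whole tissue, fewer cells of a type and less RNA per cell cannot be told apart.

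None of the 9 tested genes differed between MGL KO and WT esophagi at an adjusted p under 0.05. The test was the quasi-likelihood (QL) test of edgeR, with Benjamini-Hochberg adjustment across the 14864 genes tested, of which 0.0471% were called (0.0202% higher and 0.0269% lower in MGL KO). An unadjusted p under 0.05 was reached by 1 of the 9, Ccl11, against 8.65% of all genes tested. Of the 9, DESeq2, the exact test (on filtered genes, and on every gene with a count) and limma-voom with quality weights also called 0 at an adjusted p under 0.05, while they called 0.922%, 0.437%, 0.185% and 0.168% of all genes they tested. For 0 of the 9 genes did all MGL KO libraries lie on one side of all WT libraries, which was the case for 6.02% of all genes tested (3.3% with MGL KO lower). The log2 fold change (MGL KO minus WT) was below 0 for 6 of 9, against 47% of all genes tested, and its median over the 9 genes was -0.13, against 0.02 over all genes tested.

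**Figure D1:**
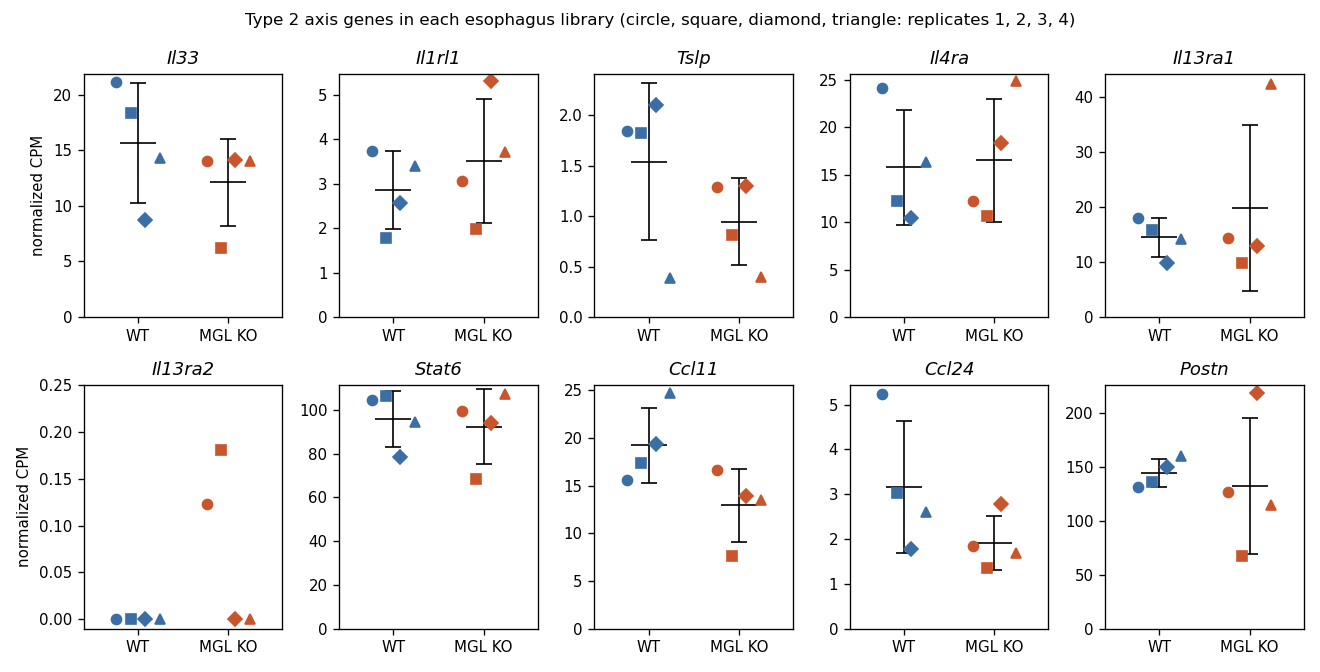
Normalized CPM (y axis, 1 panel per gene) of the 10 genes in the 4 WT libraries (blue) and the 4 MGL KO libraries (orange), with the mean as a bar and the SD as whiskers except for Il13ra2. The 2 groups overlap in every panel, MGL KO replicate 2 (orange square) is low for most genes, and MGL KO replicate 4 (orange triangle) is far above the rest for Il13ra1.

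The intervals show how large a difference these libraries could have missed. The 95% interval of the log2 fold change held 0 for 8 of the 9 genes. Its upper bound lay below a doubling for 7 genes, the exceptions being Il1rl1 and Il13ra1. Its lower bound lay above a halving for 5 genes, the exceptions being Il33, Tslp, Ccl11 and Ccl24. For Il4ra, Stat6 and Postn, both a doubling and a halving lay outside the interval. A p-value that misses the threshold does not show that the genotypes were alike.

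**Figure D2:**
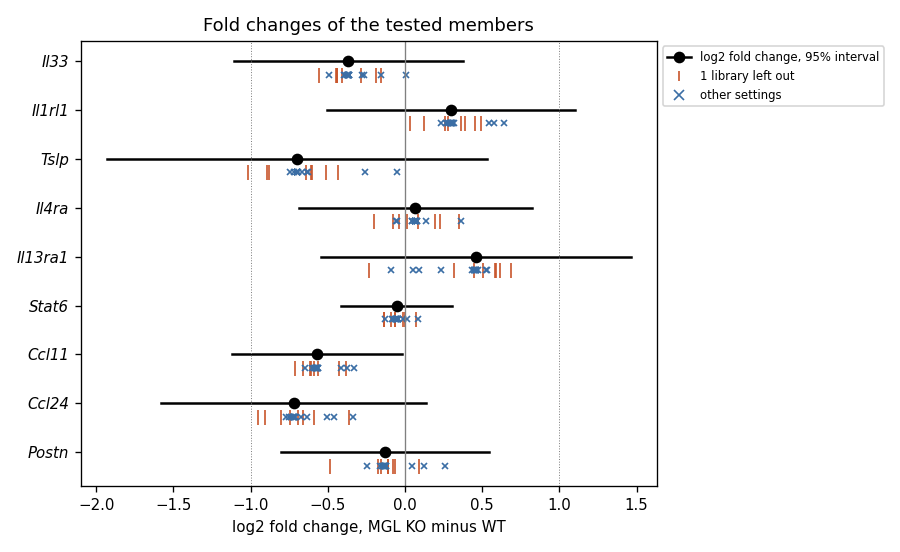
Log2 fold change (x axis, MGL KO minus WT) of the 9 tested genes (y axis) as a black dot with its 95% interval, with the values from fits that left out 1 library (orange ticks) and from other settings (blue crosses) below each. Dotted lines mark a halving and a doubling, and only the interval of Ccl11 ends short of 0, at -0.02.

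STAT6 is known to bind the letters TTC and GAA with 4 bases between them, while most other STAT proteins prefer 3 bases between them. Both forms read the same on the opposite strand, so that 1 search covers both strands, and no member held both forms. To show where such letters stand near the members, the 250 bases before and 50 bases after the start of each gene's canonical GENCODE transcript in GRCm39 were searched for 9 members, with Tslp left out. The 4-base form was found in 1 of the 9 (11.1%) and in 6.75% of 21247 protein-coding promoters of this length. The 3-base form was found in 2 of the 9 (22.2%) and in 8.77% of all. The matches, in capitals with neighboring bases in lower case, are printed 5′ to 3′ along each gene.
Il33, chr19:29902452-29902486, forward strand: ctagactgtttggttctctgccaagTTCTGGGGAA
Ccl11, chr11:81948391-81948449, forward strand: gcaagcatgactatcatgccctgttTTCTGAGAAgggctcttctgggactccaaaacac
Ccl24, chr5:135601959-135602017, reverse strand: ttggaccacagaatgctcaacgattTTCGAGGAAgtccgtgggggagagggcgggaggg
Counted from 0 at the transcript start, the match begins at -6 for Il33 (the 4-base form), at -202 for Ccl11 and at -87 for Ccl24 (the 3-base form). A match of letters is not evidence of binding, and none of these genes passed the test between genotypes.

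Il33 encodes the nuclear alarmin IL-33, whose overexpression in esophageal epithelium is the basis of the mouse EoE model used elsewhere in the study. Il33 (ENSMUSG00000024810) occupies bases 29902483 to 29938933 of chromosome 19 in GRCm39. In MGL KO replicates 1 to 4 it was at 14.0, 6.23, 14.1 and 14.1 normalized CPM. In WT replicates 1 to 4 it was at 21.1, 18.4, 8.74 and 14.3 normalized CPM. MGL KO replicates 1, 3 and 4 were thus almost equal, replicate 2 was far below them, and the WT libraries spread over a wider range on both sides. Its log2 fold change was -0.37 (standard error 0.33, 95% interval -1.11 to 0.37, edgeR QL adjusted p = 0.755). With 1 library left out it ranged from -0.56 (without WT replicate 3) to -0.15 (without MGL KO replicate 2). It was 0.01 with the level of fibroblast markers as a covariate and -0.49 with that of skeletal muscle markers. In both genotypes, the library with the lowest Il33 was also the one with the lowest sums of basal squamous, differentiated squamous, fibroblast and endothelial markers. Per 1000 normalized CPM of these marker sums, Il33 was at 1.73 to 2.63 in MGL KO and 2.23 to 3.89 in WT libraries for the basal list, and at 1.04 to 2.84 and 1.26 to 3.23 for the differentiated list. The same ratio was 6.24 to 12.4 and 6.0 to 12.1 for the fibroblast list, and 36.8 to 67.4 and 40.3 to 68.1 for the endothelial list, so the groups overlapped on every scale. With basal squamous markers as a covariate, the log2 fold change was -0.28.

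Tslp encodes thymic stromal lymphopoietin, the other epithelial alarmin. Its 161 counts over all libraries correspond to 1.29, 0.81, 1.29 and 0.39 normalized CPM in MGL KO replicates 1 to 4 and to 1.84, 1.83, 2.10 and 0.39 in WT replicates 1 to 4. The lowest library of each group reached the same level, and the other WT libraries lay above all MGL KO libraries. The log2 fold change of -0.70 (standard error 0.54) had a 95% interval from -1.93 to 0.53 and an edgeR QL adjusted p of 0.722. It was -1.01 without WT replicate 4 (a library with 6 counts of Tslp) and -0.05 in limma-voom with quality weights. The interval held both a halving and an equal level, so these libraries could not tell them apart.

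Il1rl1 encodes ST2, the receptor of IL-33 on mast cells and type 2 lymphocytes, and is found on chromosome 1 (bases 40468730 to 40504575). The counts per gene do not separate its membrane-bound from its secreted form. Il1rl1 was at 3.06, 1.99, 5.30 and 3.71 normalized CPM in MGL KO replicates 1 to 4, and at 3.74, 1.77, 2.56 and 3.39 in WT replicates 1 to 4. All libraries but MGL KO replicate 3, the highest, lay between 1.77 and 3.74. Its log2 fold change was 0.30 (standard error 0.36, 95% interval -0.50 to 1.10, edgeR QL adjusted p = 0.808). With 1 library left out it ranged from 0.03 (without MGL KO replicate 3) to 0.49 (without MGL KO replicate 2), and it was 0.64 with the fibroblast covariate and 0.57 in limma-voom. Il1rap, which encodes the shared co-receptor chain of ST2, had a log2 fold change of -0.15 (95% interval -0.76 to 0.46).

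Il4ra encodes the chain common to the IL-4 and IL-13 receptors (chromosome 7, bases 125151079 to 125182844). Il4ra was at 12.2, 10.6, 18.3 and 24.9 normalized CPM in MGL KO replicates 1 to 4 and at 24.1, 12.3, 10.5 and 16.3 in WT replicates 1 to 4. Both groups covered nearly the same range, and the highest values came from MGL KO replicate 4 and WT replicate 1. WT replicate 1 also had the highest Il2rg, the gene of the cytokine receptor γ chain of lymphocytes, at 25.4 normalized CPM, where all other libraries were at 8.88 or less. The log2 fold change of Il4ra was 0.07 (standard error 0.33, 95% interval -0.68 to 0.82), and its sign turned in 3 fits with 1 library left out and in 2 of the 15 other settings.

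Il13ra1 encodes the second chain of the type II receptor, through which IL-13 acts on epithelium and fibroblasts (chromosome X, bases 35375461 to 35435331). MGL KO replicate 4 reached 42.3 normalized CPM of Il13ra1, while MGL KO replicates 1 to 3 were at 14.3, 9.75 and 12.8. The WT replicates 1 to 4 were at 18.0, 15.9, 9.80 and 14.1 normalized CPM. The high value thus occurred in the library with the highest airway marker sums, and without this library the log2 fold change went from 0.46 (standard error 0.44, 95% interval -0.55 to 1.46, edgeR QL adjusted p = 0.772) to -0.23. The part of airway tissue in this value was not tested.

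Il13ra2 encodes the decoy receptor that binds IL-13 without STAT6 signaling and is itself known to be induced by IL-13 (chromosome X, bases 146166035 to 146212188, reverse strand). Only 4 counts were given, 2 each in MGL KO replicates 1 and 2. It had 0 counts in the other libraries, where a count of 0 allows up to 3 counts, or 0.167 to 0.197 normalized CPM. The 2 libraries with counts lay at or below 0.18 normalized CPM, under the same limit for their depth, so no fold change is given. This limit covers counting error only.

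Stat6 encodes the transcription factor that carries the signal of IL-4 and IL-13 to the nucleus. It spans 127477821 to 127496862 of chromosome 10. With 12201 counts in all, Stat6 was at 99.7, 68.2, 94.0 and 107.5 normalized CPM in MGL KO replicates 1 to 4 and at 104.5, 106.4, 78.6 and 94.3 in WT replicates 1 to 4. The groups overlapped, and the lowest library of each was again MGL KO replicate 2 and WT replicate 3. Stat6 had the narrowest interval of the 9 genes. Its level in MGL KO was 0.96 times that in WT (95% interval 0.75 to 1.23; log2 fold change -0.05, standard error 0.16, edgeR QL adjusted p = 0.926).

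Ccl11 encodes eotaxin-1, which attracts eosinophils through CCR3 and is made mainly by fibroblasts and other stromal cells. The gene spans 81948618 to 81953781 of chromosome 11. Ccl11 was at 16.7, 7.58, 13.9 and 13.5 normalized CPM in MGL KO replicates 1 to 4. In WT replicates 1 to 4 it was at 15.6, 17.4, 19.3 and 24.7 normalized CPM. The groups overlapped by 1 library, since MGL KO replicate 1 exceeded WT replicate 1, and all other WT libraries lay above all MGL KO libraries. For Ccl11, the log2 fold change was -0.57 (standard error 0.24, 95% interval -1.12 to -0.02), with an unadjusted p of 0.0446 and an edgeR QL adjusted p of 0.575, so Ccl11 did not pass the threshold. A two-sided exact permutation test of the difference in mean log2 CPM over the 70 possible assignments of genotype gave p = 0.0571, and 0.0286 is the lowest p this design can give. The direction was the same in all 23 other fits, and the log2 fold change lay between -0.71 and -0.38 with 1 library left out. Its unadjusted p was 0.05 or more in 6 of these 8 fits, up to 0.134 without WT replicate 4, and stayed under 0.05 only without MGL KO replicate 1 (0.0233) and without WT replicate 1 (0.036). Of the 15 other settings, 11 gave an unadjusted p under 0.05, and limma-voom, library size alone, the fibroblast covariate and leaving out MGL KO replicates 2 and 4 together did not.

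Of the 8 fibroblast markers, which are not members, 0 passed an adjusted p under 0.05 by the edgeR QL test and 2 reached an unadjusted p under 0.05 (8.65% of all genes tested). The log2 fold change was below 0 for all 8 (47% of all genes tested), with a median of -0.31. Without MGL KO replicate 2 it was below 0 for 6 of 8 with a median of -0.16, and without MGL KO replicates 2 and 4 for 4 of 8 with a median of 0.01. Dcn, the gene of the matrix proteoglycan decorin, was at 450.7 ± 70.4 normalized CPM in MGL KO and 577.5 ± 51.7 in WT (SD, n = 4), the only one of the 8 whose groups did not overlap, against 3.3% of all genes tested with MGL KO lower (edgeR QL adjusted p = 0.55). Their sum ranged from 998 to 1795 normalized CPM in MGL KO and from 1458 to 1876 in WT libraries. Per 1000 normalized CPM of these markers, Ccl11 was at 12, 7.59, 7.76 and 12 in MGL KO replicates 1 to 4 and at 8.30, 11.5, 13.3 and 13.7 in WT replicates 1 to 4. These ratios overlapped more than the levels did. With the mean level of the fibroblast markers as a covariate, the log2 fold change of Ccl11 was -0.38 with an edgeR QL adjusted p of 0.89, and it was -0.33 without MGL KO replicates 2 and 4. A lower level was not particular to fibroblast markers. All 7 endothelial markers had a log2 fold change below 0 (47% of all genes tested), with a median of -0.30, and 1 of them had an unadjusted p under 0.05 (8.65% of all genes tested).

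Ccl24 encodes eotaxin-2, a ligand of CCR3 known to be made by tissue macrophages. The gene spans 135598668 to 135601905 of chromosome 5 (reverse strand). Ccl24 was at 1.84, 1.35, 2.77 and 1.69 normalized CPM in MGL KO replicates 1 to 4 and at 5.24, 3.02, 1.78 and 2.61 in WT replicates 1 to 4. The single highest value, in WT replicate 1, coincided with the highest macrophage marker sum. The log2 fold change of -0.72 (standard error 0.38) had a 95% interval from -1.58 to 0.14 and an edgeR QL adjusted p of 0.632, and with 1 library left out it ranged from -0.95 (without MGL KO replicate 3) to -0.36 (without WT replicate 1). All 9 macrophage markers had a log2 fold change below 0 with a median of -0.93, 7 of them with an unadjusted p under 0.05 (8.65% of all genes tested) and 0 with an adjusted p under 0.05 by the edgeR QL test. Without WT replicate 1 the median was -0.49 and 2 of 9 had an unadjusted p under 0.05. The number with an unadjusted p under 0.05 was also 2 without MGL KO replicate 1, and 0 with the fibroblast covariate. C1qa, a complement gene of tissue macrophages, was at 44.0 ± 4.77 and 78.1 ± 34.8 normalized CPM. It was the only one of the 9 whose groups did not overlap, by a margin of 49.7 to 49.8, against 3.3% of all genes tested with MGL KO lower. The macrophage marker sum was 223 to 289 normalized CPM in MGL KO libraries and 655, 286, 245 and 438 in WT replicates 1 to 4, so that WT replicates 2 and 3 lay within the MGL KO range. Per 1000 normalized CPM of macrophage markers, Ccl24 was at 5.91 to 9.59 in MGL KO and at 5.96 to 10.6 in WT libraries, nearly the same range.

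Postn encodes periostin, which is secreted by fibroblasts and epithelium exposed to IL-13 (chromosome 3, bases 54268501 to 54298471). Postn was at 126.7, 67.8, 218.5 and 115.0 normalized CPM in MGL KO replicates 1 to 4, and at 131.5, 136.2, 149.8 and 160.2 in WT replicates 1 to 4. The WT libraries lay close together with an SD of 13.1, whereas the MGL KO libraries had an SD of 63.0 and held both the lowest and the highest value. For Postn, the log2 fold change was -0.13 (standard error 0.30, 95% interval -0.80 to 0.54, edgeR QL adjusted p = 0.909), and with 1 library left out it ranged from -0.48 (without MGL KO replicate 3) to 0.09 (without MGL KO replicate 2). Within MGL KO, the summed fibroblast markers had the same order as Postn, from 998 normalized CPM in replicate 2 to 1795 in replicate 3. This was not so within WT, where replicate 1 had the highest sum (1876) and the lowest Postn.

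MGL KO replicate 2 had the lowest value of all 8 libraries for 6 of the 9 tested genes, namely Il33, Il13ra1, Stat6, Ccl11, Ccl24 and Postn. How often this library was the lowest over all genes tested was not counted. It also had the lowest total count (13479069) and the lowest TMM factor (0.823) of the 8 libraries. In the same library, skeletal muscle markers were at a sum of 77417 normalized CPM, against 30611 to 47731 in the other MGL KO libraries. With skeletal muscle markers as a covariate, added after the data were seen, Il33 and Ccl11 had an unadjusted p under 0.05 (0.0419 and 0.0228). In this fit, 0 of the 9 genes passed the adjusted threshold by the edgeR QL test, while 31 of all 14864 genes did, against 7 in the main fit. With 1 library left out, an unadjusted p under 0.05 was also reached by Tslp without WT replicate 4 (0.046) and by Ccl24 without MGL KO replicate 3 (0.0464) or WT replicate 3 (0.0347). The share of all genes with an unadjusted p under 0.05 was not counted for the covariate fit or for the fits with 1 library left out.

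**Figure D3:**
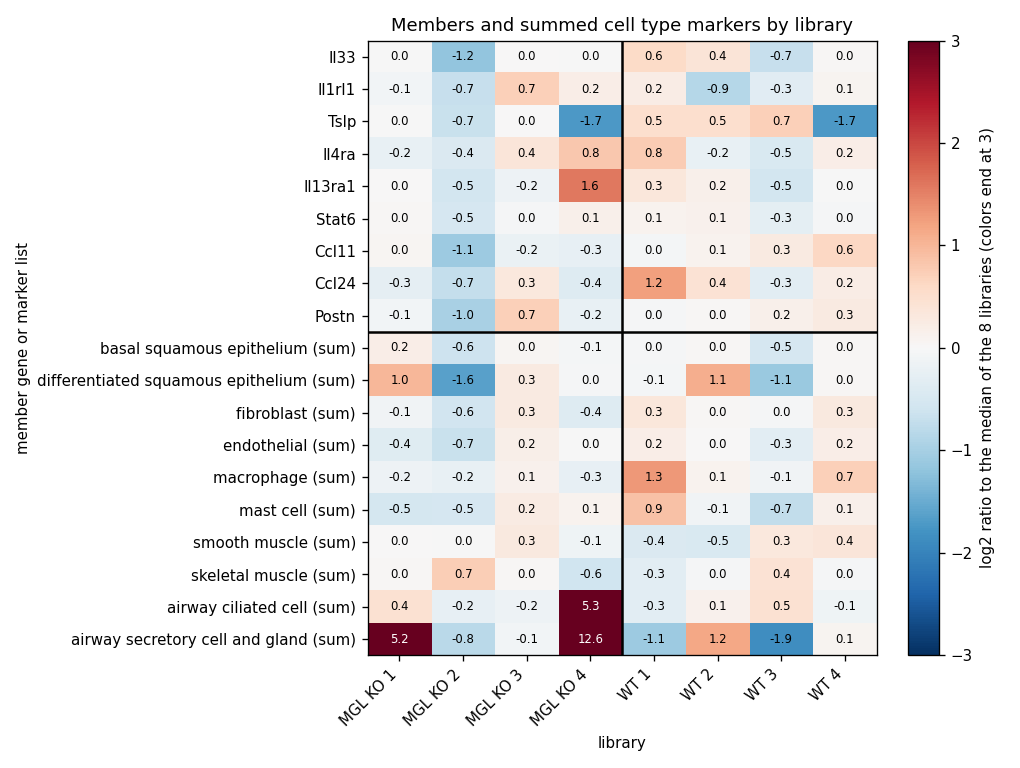
Log2 ratio of each value to the median of the 8 libraries (color, numbers in cells) for the 9 tested genes (upper rows) and the summed normalized CPM of 10 cell type marker lists (lower rows), by library (columns). MGL KO 2 is below the median for all 9 genes and above it for skeletal muscle markers, and Il13ra1 is high in MGL KO 4 together with airway markers.

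Levels between genes were compared as normalized CPM per kilobase of exon. In WT esophagi, Ccl11 (17.3 ± 3.55, SD, n = 4), Postn (16.5 ± 1.49) and Stat6 (14.4 ± 1.9) were the highest on this scale. Their WT ranges overlapped from one to the next. A second level was formed by Il13ra1 (3.06 ± 0.74), Il33 (2.53 ± 0.87), Ccl24 (2.23 ± 1.04) and Il4ra (1.58 ± 0.61), again with overlapping neighbors. Tslp (1.16 ± 0.58) and Il1rl1 (0.42 ± 0.13) followed, and Il13ra2 was last with 0 counts in WT. Only the steps from Stat6 to Il13ra1 and from Il1rl1 to Il13ra2 separated all WT libraries of neighboring genes. In MGL KO esophagi, Postn (15.1 ± 7.20) and Stat6 (13.8 ± 2.54) stood before Ccl11 (11.6 ± 3.44). Per kilobase of the longest transcript, the WT order began with Postn (27.7), Stat6 (20.5) and Ccl11 (17.3), so the order within the upper level depended on the length used.

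**Figure D4:**
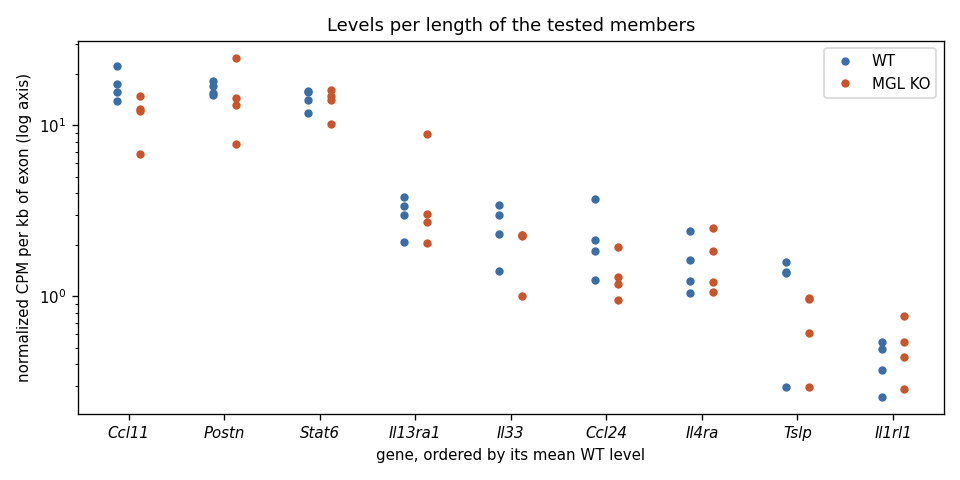
Normalized CPM per kilobase of exon (y axis, log scale) of the 9 tested genes (x axis, by mean WT level) in WT (blue) and MGL KO (orange) libraries, 1 dot per library. Ccl11, Postn and Stat6 lie above the other 6 genes in all WT libraries.

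The other genes of the pathway were taken from 6 lists of 75 genes, of which 50 were tested (Capn14 was not analysed here). By the edgeR QL test, 0 of the 50 passed an adjusted p under 0.05 and 5 had an unadjusted p under 0.05, against 8.65% of all genes tested. DESeq2 called 1, Socs3, and 0.922% of all genes it tested. The exact tests and limma-voom called 0. The log2 fold change was above 0 for 20 of the 50 pathway genes, with a median of -0.11, and for 7884 of all 14864 genes tested.

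Of the 8 type 2 cytokine genes, only Il4 was tested. Il4 was at 1.42 to 3.37 normalized CPM in MGL KO and 0.78 to 2.29 in WT libraries (log2 fold change 0.56, 95% interval -0.31 to 1.43, edgeR QL adjusted p = 0.689). Of its exon bases, 14.6% also belong to exons of Kif3a on the other strand, so that these reads carry some uncertainty. Il5, the eosinophil growth factor gene, averaged 0.39 normalized CPM in MGL KO and 0.35 in WT, with 27.1% of its exon bases shared with exons of other genes. Il13 had 3 counts in all 8 libraries together, and Il9, Il31 and Il3 had 0. Ccr3, the eotaxin receptor gene, was listed with counts only in WT replicate 1, at 0.22 normalized CPM. Ccl26, the mouse relative of human eotaxin-3, stayed at or below 0.37. The eosinophil granule gene Epx was at 0 in every library, and the 7 eosinophil markers summed to 0.63 to 2.02 normalized CPM in MGL KO and 0.39 to 1.73 in WT libraries. Of these markers only Ear2, a ribonuclease gene, was tested, at 0.45 to 1.52 normalized CPM in MGL KO and 0.066 to 1.06 in WT libraries (log2 fold change 0.77, 95% interval -0.73 to 2.28, edgeR QL adjusted p = 0.749).

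Among 10 tested receptor partners, 8 had a log2 fold change below 0 (47% of all genes tested), with a median of -0.36. Only 1 of the 10, Csf2rb2, had an unadjusted p under 0.05 by the edgeR QL test (8.65% of all genes tested). Its log2 fold change was -1.14, with an edgeR QL adjusted p of 0.55. Il17ra, the IL-17 and IL-25 receptor chain gene, was at 13.5 ± 2.41 normalized CPM in MGL KO and 17.2 ± 5.96 in WT (SD, n = 4), and Csf2rb, the common β chain gene for IL-3, IL-5 and GM-CSF, at 7.95 ± 2.17 and 13.9 ± 10.3. Both had the highest WT value in replicate 1. Of 16 genes downstream of the receptors, Socs3, an inhibitor of STAT3 signaling, was the only one with all MGL KO libraries above all WT libraries and Stat3 the only one with all below, against 6.02% of all genes tested without overlap. Socs3 was at 55.3 ± 8.43 against 37.9 ± 3.76 normalized CPM (SD, n = 4). Its log2 fold change was 0.54 (standard error 0.13), with an edgeR QL adjusted p of 0.359 and 0.0249 from DESeq2. Stat3 itself was at 168.2 ± 4.94 in MGL KO and 178.3 ± 4.30 in WT, with an edgeR QL adjusted p of 0.779. The kinase gene Jak1 was nearly level, with a log2 fold change of -0.03 (95% interval -0.22 to 0.16).

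Only 3 of 12 eotaxin relatives and chemokine receptor genes were tested. Ccl2, a monocyte chemoattractant gene, had a log2 fold change of 0.05 (95% interval -0.54 to 0.64). Ccl8 was at 0.37 to 1.35 normalized CPM in MGL KO and 0.39 to 6.69 in WT, the highest value again coming from WT replicate 1.

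Of 15 genes known to respond to IL-4 or IL-13, 8 were tested, and 4 of them had a log2 fold change above 0. Retnla, a gene of alternatively activated macrophages, was at 84.2 ± 25.2 normalized CPM in MGL KO and 86.4 ± 22.8 in WT (SD, n = 4). Mrc1, the mannose receptor gene of tissue macrophages, was at 24.4 ± 3.46 and 38.0 ± 11.4, with an edgeR QL adjusted p of 0.503. Cdh26, an epithelial cadherin gene, was at 52.8 normalized CPM in MGL KO replicate 4 and at or below 0.49 in every other library. In MGL KO replicates 2 and 3 and in all WT libraries it lay under 3 counts, so these libraries cannot be ordered. Clca1, Muc5ac, Itln1 and Tff2, mucosal secretory genes named after their values were seen, were likewise at 83.1, 47.0, 166.9 and 88.7 normalized CPM in MGL KO replicate 4 and at or below 1.71 in every other library. These high values all lay in the library with the highest airway marker sums. Of the 12 periostin partners, all tested, 0 had an unadjusted p under 0.05 by the edgeR QL test. Col3a1 and Col1a1, the genes of fibrillar collagen chains, had log2 fold changes of -0.17 and -0.25.

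**Figure D5:**
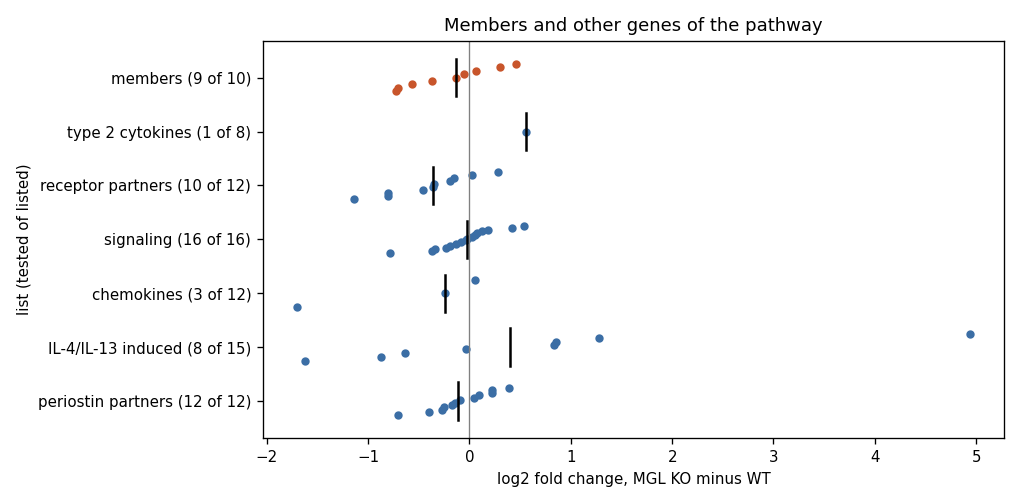
Log2 fold change (x axis, MGL KO minus WT) of the tested genes of each list (y axis, tested of listed), 1 dot per gene, with the list's median as a black bar. The 9 members (orange) lie between -0.72 and 0.46, and the dot at 4.94 is Clca1, which was high in MGL KO replicate 4.

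The genes whose log2 CPM followed a member most closely over the 8 libraries were looked up among 11568 genes, as a description without a test. Il33 was most like Sox10, a transcription factor gene of glia and Schwann cells, with a Pearson r of 0.99 (0.98 without MGL KO replicate 2), and among the other members it had the highest Pearson r with Stat6 (0.94, and 0.85 without MGL KO replicate 2) but the highest Spearman rho with Ccl24 (0.90, against 0.62 with Stat6). The next genes for Il33 were Gpc3 and Slc30a7, at 0.98 and 0.97. Ccl11 was most like Abi3bp, a gene for a matrix protein (0.99), followed by Abl1 and Il36g. Postn was most like Nkd2, Col5a3 and Hmcn2, at 0.97 to 0.98, and Ccl24 was most like Igfbp4 (0.98), Rasa3 and Ripk3. Il13ra1 was most like Cyp2b10, Prkcz and Pi4k2b, each at 0.99, and at 0.96 to 0.97 without MGL KO replicate 4. Il4ra was closest to Trf, Pde3b and Dgat1 (0.98 each), and Stat6 to Art4 (0.99), Ptk7 and Pdcd6ip. The 3 closest genes to Il1rl1 (Itgb3, Gramd4 and Gpr153) reached 0.92 to 0.94, and those to Tslp (Acbd4, Ttyh2 and Top3a) 0.91 to 0.92. All these values share the same libraries, depth and tissue composition.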

How the data were processed

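RNA-seq libraries of 4 MGL KO and 4 WT esophagi were grouped by their sample titles. The authors checked reads with FastQC 0.11.9, trimmed adapters with Cutadapt, aligned to GRCm39 with STAR 2.7.10b and deposited raw read counts per gene symbol, without normalization. The annotation, the counting tool and its use of strand are not given in the sources used here. Whether this lowered the counts of genes with antisense neighbors was not tested. Tagln, with 66.7% of its exon bases shared with other genes, was at 1.11 normalized CPM or less. For the members, the shared part was at most 5.7% (Il4ra).

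Genes were kept by filterByExpr (edgeR 4.0.16, R 4.3.3) with its minimum count set to 10, and 14864 of 22721 genes with a count remained. The total count per library was 13479069 to 17090152, and 3 counts equal 0.167 to 0.271 normalized CPM. The genotypes were compared with the quasi-likelihood (QL) test of edgeR after TMM scaling, with Benjamini-Hochberg adjustment over all tested genes at 0.05. Standard errors were the size of the log2 fold change over the square root of F. The paper names edgeR's exact test, which was an alternative beside DESeq2 1.42.0, limma 3.58.1 (voom with quality weights), a robust fit, other scalings and filters, marker covariates, a replicate block and leaving out libraries. Log2 CPM for correlations, covariates and the exact permutation test used a prior count of 1. Where nothing states that the mice came from separate litters, p-values measure the spread between these libraries. No pair of libraries of a group agreed within sampling noise (chi-square per degree of freedom 13.6 or more).

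The members and lists were chosen with earlier results of these data known. The text names all members, for each pathway list the genes past the threshold or without overlap between groups and the 2 with the highest mean, the 3 genes most like each member among genes with a mean of at least 5 normalized CPM, and Mgll. The rule also names the 2 highest genes of each marker list, of which those the results touch (Dcn, C1qa, Ear2) are given. Other pathway and marker genes with values (such as Il2rg, Il1rap, Il13, Ccr3, Ccl26, Epx, Ivl and Tagln) were chosen after their values were seen. Exon lengths and positions were from GENCODE mouse release M39 on GRCm39, where 93.6% of symbols matched. The QL test was first tried on simulated counts of 14864 genes, with known changes in genes drawn at random and not in the members. It called 44% of the changes of log2 size 1 and 82% of those of log2 size 2. The 95% interval held the true value for 94.5% of the changed genes.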

Additional observations from a re-analysis of the deposited data

Results flagged for a closer look

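In 44 groups of 4 values (10 genes and 12 marker lists in each genotype), 6 had 1 library far from the other 3, where chance gives about 2.2. In normalized CPM, MGL KO replicate 2 held 6.23 of Il33 while the rest of its group held 14.0 to 14.1, WT replicate 4 held 0.391 of Tslp while the rest held 1.83 to 2.1, and MGL KO replicate 4 held 42.3 of Il13ra1 while the rest held 9.75 to 14.3. In MGL KO replicate 4, the 8 airway ciliated cell markers summed to 531 normalized CPM (others of its group 11 to 17.8) and the 6 airway secretory cell and gland markers to 8975 (others 0.812 to 52.4). The basal squamous epithelium markers summed to 3926 normalized CPM in WT replicate 3, below the 5440 to 5670 of the other WT libraries.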

How the results depend on the processing

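The count of 0 members past the threshold was 0 in every setting run. The skeletal muscle covariate and the fit without MGL KO replicates 2 and 4 were added after the data were seen. Of 206 other values of the members' log2 fold changes, 191 kept their sign and 15 changed it, with 0 past the threshold and with the cause not tested. The sign changed with the fibroblast covariate for Il33 (0.0094), Stat6 (0.084) and Postn (0.12), with the skeletal muscle covariate for Il4ra (-0.060), in limma-voom with quality weights for Postn (0.044), and without MGL KO replicates 2 and 4 for Il4ra (-0.049), Il13ra1 (-0.090), Stat6 (0.015) and Postn (0.26). With 1 library left out, the log2 fold change ranged from -0.20 to 0.35 for Il4ra, from -0.23 to 0.68 for Il13ra1, from -0.13 to 0.068 for Stat6 and from -0.48 to 0.090 for Postn. The number of pathway genes past the threshold was 0, and 1 with DESeq2 (Socs3). Per kilobase of the longest transcript, 3 of the 10 genes kept their place in the WT order. With the replicate number as a replicate block, 0 members were called. The MGL KO and WT libraries of replicates 1 to 4 deviated together at correlations of -0.14, -0.28, -0.14 and 0.08. Libraries with different numbers were not compared in this way, so these values have no reference. Whether libraries with the same number shared more than the number was not tested. Over all genes, 7 were called, 2 with the block, 65 when filtered genes went through the exact test, and 137 in DESeq2.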
